A study of Mus musculus with 4 samples.

Results

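Lin28a, Lin28b, Hmga2, Igf2bp1, Igf2bp3 and Arid3a are 6 genes of the Lin28 and let-7 axis. They were followed probe set by probe set in haematopoietic progenitors of the mouse foetal liver. Every probe set of the array that is annotated to exactly 1 of these genes was taken, which gave 18 of 45037 probe sets: 6 for Igf2bp3, 4 for Hmga2, 4 for Igf2bp1, 2 for Lin28a, 1 for Lin28b and 1 for Arid3a. RNA came from LSK cells, sorted by the absence of lineage markers and the presence of cKit and Sca1, of female Hes1 GFP/WT embryos at E13.5. In these embryos 1 Hes1 allele carries GFP, and the cells on all arrays share that genotype, so no wild-type cells stand beside them. The groups are HES1-GFP positive cells (1 array) and HES1-GFP negative cells (3 arrays). The labels do not say whether embryos were pooled or whether the negative replicates came from separate sorts, so p-values measure only the spread between these 3 arrays, which may be technical.

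LIN28A and LIN28B are RNA-binding proteins that bind the precursors of the let-7 microRNAs and block their maturation. Mature let-7 in turn lowers the messenger RNA and protein of genes that carry its target sites, among them Hmga2, Igf2bp1, Igf2bp3, Arid3a and Lin28b. In mouse and human blood formation this axis is known as a switch between foetal and adult progenitors: Lin28b and Hmga2 are high in foetal stem cells and low in adult ones, and forced Lin28 gives adult progenitors a foetal pattern of lymphoid output. The microRNAs were not measured by these arrays, so let-7 appears here only as sequence.

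The let-7 microRNAs are shown because a shared seed lets them regulate the same target genes. RefSeq (GRCm38.p6) lists 12 hairpins named let-7 or miR-98 that give 9 different mature sequences from the 5′ arm, and all 9 have the same seed, bases 2 to 8 from the 5′ end, in capitals below. let-7a is encoded at 2 loci, of which Mirlet7a-1 holds it on the minus strand at chr13:48538239-48538260. The table places let-7d on the minus strand at chr13:48536078-48536099, let-7g on the plus strand at chr9:106178846-106178867 and miR-98 on the plus strand at chrX:151913229-151913250.
mmu-let-7a-5p: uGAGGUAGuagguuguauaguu
mmu-let-7d-5p: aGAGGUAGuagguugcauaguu
mmu-let-7g-5p: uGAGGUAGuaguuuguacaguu
mmu-miR-98-5p: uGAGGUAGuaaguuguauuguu

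The zinc knuckles of the Lin28 proteins prefer a GGAG run in the loop of the precursor, which is in capitals in the let-7g hairpin below (plus strand, chr9:106178840-106178927). GGAG stood between the arms in 9 of the 12 hairpins. The let-7b hairpin (plus strand, chr15:85707319-85707403) is 1 of the 3 without it and is shown for contrast. These letters describe the precursors and say nothing of binding in these cells.
pre-let-7g: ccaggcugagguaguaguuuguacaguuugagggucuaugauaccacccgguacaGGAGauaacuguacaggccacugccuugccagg
pre-let-7b: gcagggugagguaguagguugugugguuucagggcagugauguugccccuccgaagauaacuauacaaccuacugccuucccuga

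Hes1, a repressor of transcription that Notch signalling switches on, is the gene that holds the reporter, and its transcript went against the labels. Its log2 intensity was 6.57 in the positive-labelled array, against 8.78, 9.07 and 6.70 in negative replicates 1, 2 and 3. The groups are therefore called by their labels, and each difference is the positive-labelled array minus the mean of the negative arrays. Of 7 LSK markers 2 lay above the negative range and 1 below it, against 23.6% and 23.0% of all genes. Kit was at 10.13 against 9.90, 9.72 and 9.68, and Cd34 at 11.87 against 11.42, 10.80 and 11.70. Flt3 went the other way, at 11.07 against 12.12, 11.95 and 11.63. The probe sets of Kit, Cd34 and Flt3 were above the array median on all 4 arrays, and that of Slamf1 on 3. Ly6a, the gene of Sca1, had no probe set of its own in the annotation used here. The positive-labelled array and negative replicate 3 stood apart from negative replicates 1 and 2 in many, though not all, markers of other cells. Of 6 macrophage markers 3 were lower on the positive-labelled array than on any negative array, against 23.0% of all genes, and 0 were higher. The summed intensity of the 6 macrophage markers was 2800 in the positive-labelled array and 16669, 16420 and 2261 in negative replicates 1, 2 and 3, and that of 6 B lineage markers was 2980, against 15762, 16729 and 3256. For 4 mast cell markers the sums were 570, against 5292, 4978 and 478, for 5 endothelial markers 754, against 2650, 2081 and 1259, and for 4 erythroid markers 6568, against 4292, 4641 and 6922. Such sums are led by the brightest genes, and not all markers followed them. Mcpt8 of the mast cell list was at 7.55 against 5.91, 6.24 and 7.78, the only 1 of the 4 with a difference above 0. Of the 5 endothelial markers, all with a difference below 0, 2 were highest in negative replicate 3. Emcn was at 8.10 against 8.37, 8.31 and 9.19, and Tie1 at 7.57 against 7.28, 7.86 and 8.25.

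Across the 6 genes, 1 of the 2 probe sets of Lin28a, the only one of Arid3a and 1 of the 4 probe sets of Igf2bp1 were brighter in the positive-labelled array than in any negative array by more than 1 log2 unit. Hmga2 was below the lowest negative array there at all 4 of its probe sets, by only 0.01 to 0.19 log2 units. Igf2bp3 differed little, and Lin28b was near the dim end of the array throughout. At 3 of the 18 probe sets (1 each of Lin28a, Igf2bp1 and Arid3a) the positive-labelled array lay at least 1 log2 unit above the 3 negative arrays, against 1.35% of all probe sets, and at 0 of 18 at least 1 unit below them, against 0.631%. Counting any distance, it lay above the negative range at 4 probe sets, against 23.2% of all, below it at 6, against 23.6%, and within it at 8. The share above was near the background, and 4 of the 6 probe sets below were those of Hmga2. Without negative replicate 1 the positive-labelled array lay above the range at 7 probe sets. Fewer arrays give a narrower range, and the share of all probe sets was not worked out there, so this count has no background. The median difference of the 18 probe sets was -0.11 log2 units, against -0.011 over all probe sets.

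None of these differences passed the test. limma, fitted to all 45037 probe sets with Benjamini-Hochberg adjustment, called 0.0% of them higher and 0.0% lower at an adjusted p under 0.05, the members included. At an unadjusted p under 0.05 it gave 2032 probe sets, 3 of them members. With 1 array against 3 an exact permutation of the labels cannot give a one-sided p below 0.25, and the positive-labelled array has no spread of its own, so limma assumed that it varies like the negative arrays.

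**Figure D1:**
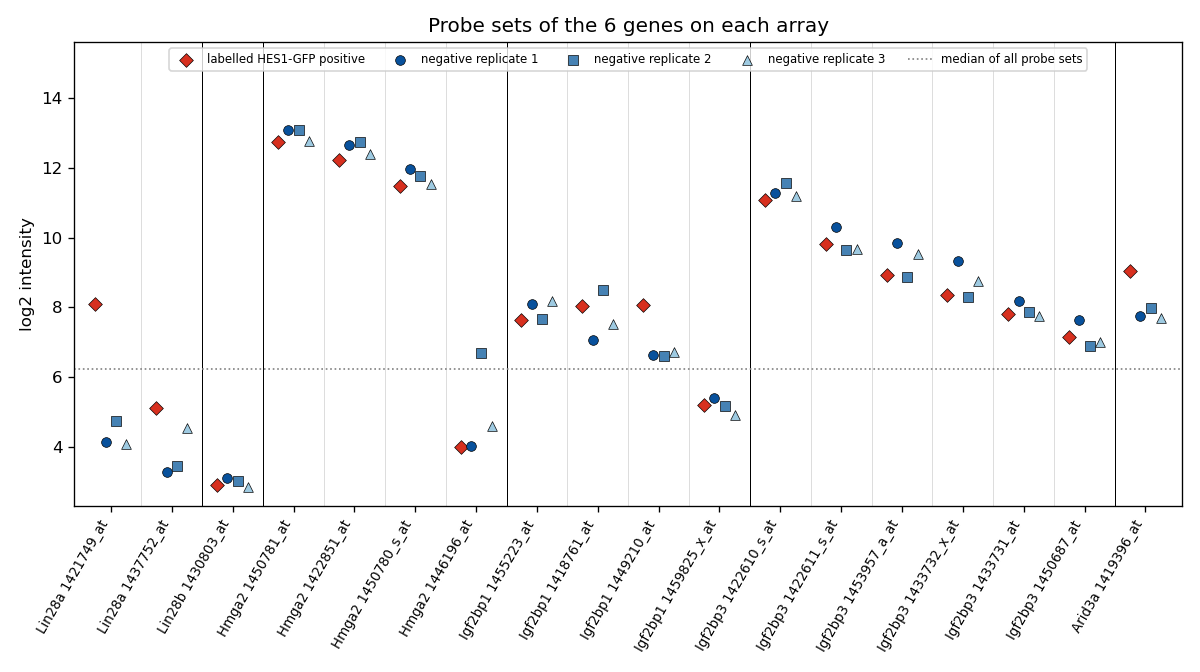
Log2 intensity (vertical axis) of the 18 probe sets of the 6 genes (horizontal axis) on the array labelled HES1-GFP positive (red diamonds) and negative replicates 1, 2 and 3 (blue circles, squares and triangles), with the median of all probe sets, 6.23, as a dotted line. The red diamond of Lin28a 1421749_at is at 8.11, above the line, while its 3 negative arrays lie between 4.08 and 4.73, below it.

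Lin28a was the member furthest from the negative arrays. The log2 intensity of its first probe set, 1421749_at, was 8.11 in the positive-labelled array, against 4.14, 4.73 and 4.08 in negative replicates 1, 2 and 3. The 3 negative arrays were all dim and close to each other, and only the positive-labelled array was above the median of all probe sets. On the linear scale the intensities were 277 against 17.6, 26.6 and 16.9. The difference was 3.80 log2 units (standard error 0.36), with an unadjusted limma p of 0.000577 and an adjusted p of 0.717. With a pseudocount of 16 added to the intensities it was 3.02, and since the negative values are dim its size depends on how such values are treated.

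The second Lin28a probe set, 1437752_at, was dimmer and pointed the same way with a different spacing of the arrays. Its log2 intensity was 5.11 in the positive-labelled array, against 3.27, 3.44 and 4.54 in negative replicates 1, 2 and 3. Negative replicate 3 came within 0.57 log2 units of the positive-labelled array, while replicates 1 and 2 lay further below. The difference was 1.36 log2 units (standard error 0.61, limma adjusted p 1.00), or 0.75 with a pseudocount of 16, and all 4 values were below the median of all probe sets. The probe sets thus shared the order of the positive-labelled array above all negative arrays and did not share the position of replicate 3. Both Lin28a probe sets had a mean under the median level, and no detection calls were at hand to say which of these dim values are above background.

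Lin28a transcripts are best known from pluripotent and germ cells, and markers of those cells were looked at beside it. Of 6 pluripotent and germ cell markers, 3 (Nanog, Ddx4 and Utf1) lay above the negative range, 1 below it and 2 within it, where 23.6% of all genes lay above and 23.0% below. Of the 6, 4 were under the array median on all 4 arrays. Pou5f1, the gene of OCT4, was at 5.54 in the positive-labelled array, against 5.04, 5.72 and 5.68 in negative replicates 1, 2 and 3. Nanog was at 4.39 against 4.12, 4.13 and 4.36, and Ddx4, a germ cell helicase, at 7.81 against 7.36, 6.33 and 7.54. The summed intensity of the 6 markers was 498 in the positive-labelled array and 411, 354 and 472 in the negative arrays, with negative replicate 3 next to the positive-labelled array.

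The promoters of the Lin28 pair are shown because these are the let-7 regulators among the 6 genes and because Hes1 and Notch act through known DNA motifs. Each is the 250 bases before the gene's start, from RefSeq (GRCm38.p6): Lin28a on the minus strand at chr4:134018817-134019066 and Lin28b on the minus strand at chr10:45470202-45470451. Both strands were searched for TGGGAA, the core of the motif of the Notch partner RBPJ, and for CACNAG, the N box that HES1 binds. Lin28a holds 1 TGGGAA, in capitals, whose first base lies 221 bases before the start, and no CACNAG. Lin28b holds neither, nor do the windows of Hmga2 and Igf2bp3. No other motif was searched for, so these windows may hold other sites for HES1 or RBPJ. Of 32851 mouse promoter windows of this length, 21.6% hold TGGGAA and 36.7% hold CACNAG, so a match is common and is a description of the letters only.
Lin28a promoter: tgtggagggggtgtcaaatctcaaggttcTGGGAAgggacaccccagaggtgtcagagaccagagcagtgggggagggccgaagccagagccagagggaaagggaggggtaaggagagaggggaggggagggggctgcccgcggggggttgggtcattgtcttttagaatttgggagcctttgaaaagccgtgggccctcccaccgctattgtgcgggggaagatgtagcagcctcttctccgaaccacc
Lin28b promoter: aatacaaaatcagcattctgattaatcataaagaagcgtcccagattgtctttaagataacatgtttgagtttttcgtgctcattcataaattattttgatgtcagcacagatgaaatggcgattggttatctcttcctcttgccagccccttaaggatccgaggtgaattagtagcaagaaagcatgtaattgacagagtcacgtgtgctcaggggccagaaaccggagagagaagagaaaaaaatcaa

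Lin28b, the paralogue known to mark foetal blood progenitors, had a single probe set that was dim on every array. Its log2 intensity, at 1430803_at, was 2.92 in the positive-labelled array, against 3.10, 3.03 and 2.85 in negative replicates 1, 2 and 3. The arrays overlapped, with a whole range of 0.25 log2 units and a difference of -0.07 (standard error 0.22, limma adjusted p 1.00). On each array between 3.05% and 6.24% of probe sets were at or below it. A probe set at this level gives no order of the arrays and, without detection calls, does not show whether the transcript is present.

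Hmga2 encodes a chromatin protein that bends AT-rich DNA and supports self-renewal of foetal stem cells, and it was bright on all arrays. At 1450781_at the log2 intensity was 12.75 in the positive-labelled array, against 13.09, 13.09 and 12.78 in negative replicates 1, 2 and 3. At 1422851_at it was 12.22 against 12.66, 12.74 and 12.41, and at 1450780_s_at it was 11.48 against 11.98, 11.78 and 11.53. The positive-labelled array was the lowest in all 3, with negative replicate 3 just above it, so that these arrays lay together below negative replicates 1 and 2. On the linear scale 1450781_at was at 6890 in the positive-labelled array and at 8712, 8728 and 7011 in the negative arrays.

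The differences in Hmga2 were under 0.5 log2 units at the bright probe sets and did not pass the test. They were -0.23 log2 units (standard error 0.24) at 1450781_at, -0.38 (0.24) at 1422851_at and -0.28 (0.27) at 1450780_s_at, each with a limma adjusted p of 1.00. The gap to the lowest negative array was only 0.03, 0.19 and 0.05 log2 units. The fourth probe set, 1446196_at, was at 4.01 in the positive-labelled array and at 4.02, 6.69 and 4.61 in negative replicates 1, 2 and 3. There replicate 2 alone was above the array median, the standard deviation of the negative arrays was 1.40, and the difference was -1.10 (standard error 1.19), or -0.30 without replicate 2.

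Igf2bp1 and Igf2bp3 encode foetal RNA-binding proteins that stabilize messenger RNAs, including those of growth genes, and both are let-7 targets. The 4 probe sets of Igf2bp1 disagreed with each other. At 1449210_at the log2 intensity was 8.07 in the positive-labelled array, against 6.63, 6.60 and 6.73 in negative replicates 1, 2 and 3. The negative arrays were nearly equal there, with a standard deviation of 0.06, and the positive-labelled array lay 1.34 log2 units above the highest of them. The difference was 1.42 log2 units (standard error 0.20), a ratio of 2.67, with an unadjusted limma p of 0.00240 and an adjusted p of 0.783.

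The other probe sets of Igf2bp1 did not share that separation. At 1455223_at, which has the highest mean of the 4, the log2 intensity was 7.65 in the positive-labelled array, against 8.10, 7.68 and 8.19 in negative replicates 1, 2 and 3, so that the positive-labelled array was the lowest. At 1418761_at it was 8.05 against 7.07, 8.49 and 7.52, between negative replicates 2 and 3. At 1459825_x_at it was 5.19 against 5.39, 5.16 and 4.91, within the range and below the array median. Their differences were -0.35 (standard error 0.29), 0.36 (0.63) and 0.04 (0.28) log2 units, each with a limma adjusted p of 1.00. Averaged over the 4 probe sets the difference was 0.37 log2 units, and a direction for the gene therefore rests on which probe set is read.

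Igf2bp3, which is known in mouse to promote foetal-type lymphoid output downstream of Lin28b, was measured by 6 probe sets. At 1422610_s_at, the brightest, the log2 intensity was 11.07 in the positive-labelled array, against 11.29, 11.56 and 11.19 in negative replicates 1, 2 and 3. The positive-labelled array was the lowest there by 0.12 log2 units, and at the other 5 probe sets it was within the range of the negative arrays. At 1453957_a_at it had 8.92, against 9.84, 8.86 and 9.52 in negative replicates 1, 2 and 3. Negative replicate 1 was the highest array at all 5.

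The 6 differences of Igf2bp3 were all below 0, from -0.49 to -0.05 log2 units, with limma adjusted p of 1.00 for each. At 1422611_s_at the positive-labelled array was at 9.83, against 10.32, 9.65 and 9.68, a difference of -0.05 (standard error 0.37) that came from negative replicate 1. Without negative replicate 1 that difference was 0.17 and that of 1450687_at was 0.18, so the shared sign depended on 1 array. The probe sets are targets of 1 gene and are no replicates of each other. Those ending in _s_at or _x_at can also bind other transcripts, which may include the related gene Igf2bp1.

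Arid3a encodes a DNA-binding factor of early B cells, a let-7 target that favours B-1 over conventional B cell development in mouse. Its only probe set, 1419396_at, had a log2 intensity of 9.04 in the positive-labelled array, against 7.75, 7.97 and 7.69 in negative replicates 1, 2 and 3. The groups did not overlap, the negative arrays were within 0.28 log2 units of each other, and the lowest gap was 1.07 log2 units. The difference was 1.24 log2 units (standard error 0.23), a ratio of 2.36, with an unadjusted limma p of 0.00633 and an adjusted p of 0.846.

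The B lineage markers were arranged differently over the arrays from Arid3a. Pax5, a B cell identity factor, was at 6.11 in the positive-labelled array, against 10.39, 10.62 and 6.41 in negative replicates 1, 2 and 3, and Ebf1, an early B cell factor, at 5.90 against 10.13, 9.97 and 6.61. Of the 6 B lineage markers 5 lay below the negative range, against 23.0% of all genes, and 0 above it. Negative replicate 3 was low in these markers together with the positive-labelled array, but in Arid3a it was level with negative replicates 1 and 2. Hepatoblasts also express foetal genes. Of their 6 markers 1, Hnf4a, lay above the negative range and 0 below it, against 23.6% and 23.0% of all genes, and 2 had a difference below 0. The summed intensity of the 6 was 2321 in the positive-labelled array and 2168, 1531 and 2389 in the negative arrays. The part of other cells in the member differences was not tested. In sorted bulk samples a larger share of cells with a transcript and more of it per cell cannot be told apart.

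**Figure D2:**
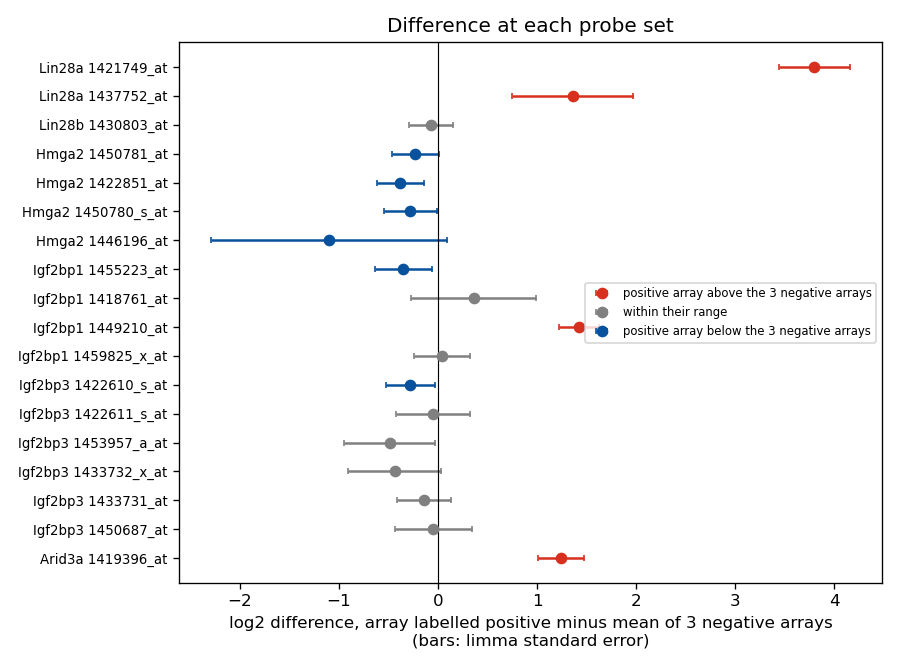
Log2 difference between the array labelled HES1-GFP positive and the mean of the 3 negative arrays (horizontal axis) at each of the 18 probe sets (vertical axis), with bars for limma's standard error. Red points mark probe sets at which the positive-labelled array lay above all negative arrays, blue ones those below, and grey ones those within the range. The difference reaches 3.80 at Lin28a 1421749_at, 1.42 at Igf2bp1 1449210_at and 1.24 at Arid3a, while the 4 Hmga2 points lie between -1.10 and -0.23.

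**Figure D3:**
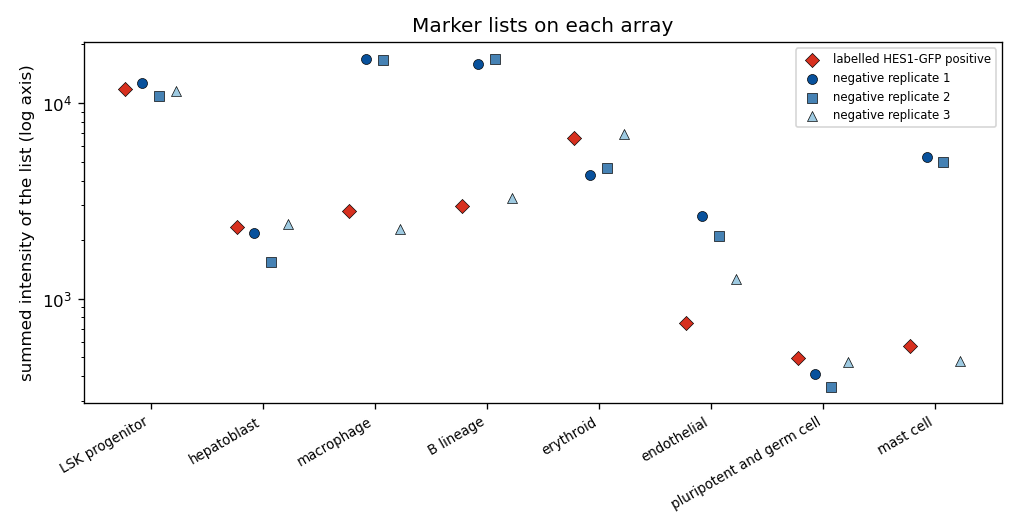
Summed linear intensity (log axis) of 8 marker lists on the array labelled HES1-GFP positive (red diamonds) and negative replicates 1, 2 and 3 (blue circles, squares and triangles). Macrophage and B lineage sums are low on the positive-labelled array and on negative replicate 3, and the pluripotent and germ cell sums lie between 354 and 498 on all 4 arrays.

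Profiles like those of Lin28a and Arid3a were looked for among all other named genes, as the smallest root mean square difference of centred log2 values over the 4 arrays. The remaining members varied by less than 1 log2 unit at their brightest probe set and were not used. Nearest to Lin28a 1421749_at were Matn2, a matrix protein, at 0.212 log2 units, Mboat7, a membrane acyltransferase, at 0.294, and Slc1a2, a glutamate transporter, at 0.348. Matn2 was at 7.88 in the positive-labelled array, against 3.98, 4.64 and 3.44 in the negative arrays. Its other probe set did not share the direction, while for Slc1a2 2 of the 4 other probe sets did and for Mboat7 1 of the 2. Nearest to Arid3a were Slc4a11, a membrane transporter, at 0.035, Tmed7, a protein of vesicle traffic, at 0.042, and Orc4, a subunit of the origin recognition complex, at 0.047. These distances over 4 arrays are a description.

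Genes that make and destroy let-7 were nearly level between the groups. Of 23 genes of let-7 maturation and turnover, each read at its brightest probe set, 3 lay above the negative range and 6 below it, against 23.6% and 23.0% of all 18193 genes. In limma 0 passed, with 1 at an unadjusted p under 0.05, against 666 of the 18193 genes read in the same way. Ago3 alone was at least 1 log2 unit above the negative range, against 0.841% of all genes. The median difference of the list was -0.04 log2 units, against -0.0012 over all genes. Dicer1, the enzyme that cuts the precursor, was at 9.99 in the positive-labelled array, against 10.19, 10.14 and 9.89 in negative replicates 1, 2 and 3. Tut4, which adds uridines to let-7 precursors held by LIN28A, was at 9.12 against 9.77, 9.17 and 8.75, within the range.

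Among those 23 genes, the differences furthest from 0 were those of Ago3, Xpo5, Tut1 and Dis3l2. Ago3, an Argonaute protein that carries mature microRNAs, was at 8.17 against 6.47, 6.82 and 6.70, a difference of 1.51 log2 units (standard error 0.24, limma adjusted p 0.842). The other 4 probe sets of Ago3 differed by -0.23 to -1.05, the opposite direction. Xpo5, the exporter of precursors from the nucleus, was at 9.91 against 9.27, 9.21 and 9.55. Both of its probe sets lay above the range, and they differed from the negative mean by 0.56 and 0.51. Tut1, a nucleotidyltransferase, differed by 0.51 within the range. Dis3l2, the exonuclease that destroys uridylated let-7 precursors, was at 7.45 against 8.19, 7.59 and 7.93, with 1 of its 2 other probe sets in the opposite direction.

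Other let-7 targets mostly lay close to the negative arrays. Of 24 target genes outside the 6 members, 4 lay above and 7 below the negative range (23.6% and 23.0% of all genes). In limma 0 of them passed, and 0 had an unadjusted p under 0.05, against 666 of all 18193 genes. The list had a median of 0.03 log2 units. Cdk6, a kinase of the G1 phase, was at 11.09 in the positive-labelled array, against 11.18, 11.10 and 11.16 in negative replicates 1, 2 and 3, and Myc, a growth factor-responsive transcription factor, at 12.50 against 12.52, 12.34 and 12.42. Both genes were nearly equal on the 4 arrays. Zbtb16, a zinc finger factor of innate-like lymphocytes, was at 5.85 against 8.68, 8.59 and 6.99, the only one at least 1 log2 unit below the range, against 0.566% of all genes, at a difference of -2.24 (standard error 0.82, limma adjusted p 1.00). Negative replicate 3 lay there between the positive-labelled array and replicates 1 and 2, and in the 2 other Zbtb16 probe sets it was the lowest array.

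The other targets with large differences were Thbs1, Mycn and Igf2r. Thbs1, an extracellular matrix protein, was at 7.70 against 5.92, 6.30 and 8.72, within the range, and its second probe set was at 7.73 against 5.72, 4.34 and 6.98, above it. Mycn, a growth-promoting transcription factor, was at 11.53 against 11.01, 10.66 and 11.46, while its 2 other probe sets differed by -0.27 and -0.60. Igf2r, a receptor that clears IGF2, was at 8.34 against 8.78, 9.24 and 8.34, at the lower edge of the range. Hmga1 and Igf2bp2, let-7 targets of the same families as Hmga2 and the Igf2bp genes above, were not analysed here.

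Of 13 other genes of the foetal programme, 3 lay above and 5 below the negative range, against 23.6% and 23.0% of all genes. The list had a median of -0.01 log2 units, or -0.31 with averaged probe sets and -0.13 without negative replicate 3. In limma 0 passed, with 1 at an unadjusted p under 0.05, against 666 of all 18193 genes. Hbb-y, an embryonic globin, was at 10.17 in the positive-labelled array, against 8.32, 6.65 and 9.41 in negative replicates 1, 2 and 3, and Hbb-bh1, another embryonic globin, at 7.91 against 6.14, 6.34 and 7.85. Globin genes have near-identical copies, so their probe sets may share signal. Dlk1, a foetal membrane protein, was at 9.23 against 7.76, 6.78 and 10.13. In these 3 genes negative replicate 3 was on the side of the positive-labelled array, unlike in Lin28a 1421749_at, Igf2bp1 1449210_at and Arid3a. Cbx2, a Polycomb subunit, was at 7.21 against 8.64, 8.86 and 9.22, a difference of -1.70 (standard error 0.31, limma adjusted p 0.846), and its second probe set lay within the range.

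**Figure D4:**
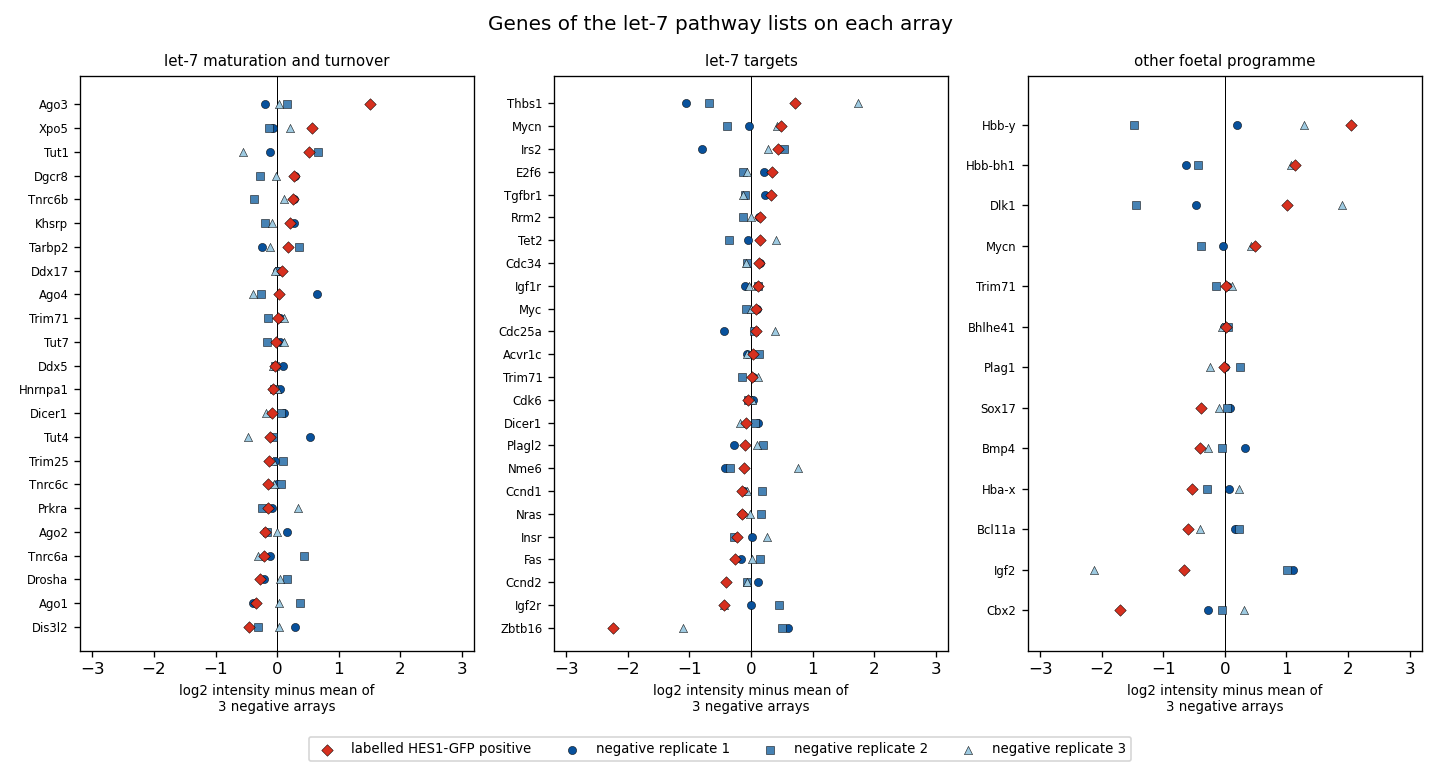
Log2 intensity minus the mean of the 3 negative arrays (horizontal axis) for the genes of 3 lists (vertical axes), on the array labelled HES1-GFP positive (red diamonds) and negative replicates 1, 2 and 3 (blue circles, squares and triangles). Most red diamonds lie near 0 and among the blue points, with Ago3 at 1.51, Zbtb16 at -2.24, Cbx2 at -1.70 and Hbb-y at 2.05 furthest away.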

How the data were processed

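RNA from sorted foetal liver LSK cells was measured on 4 Affymetrix arrays. Per the labels' protocols, 5 ng of total RNA per sample went through Nugen Ovation amplification and the cDNA was tagged with biotin. Per the submitters' processing notes the authors used RMA; its version is not given in the sources used here. Intensities as deposited are linear, with medians of 74.8 to 76.1 per array and no missing value; log2 was taken of them without a pseudocount. No detection calls or scanner files were used, and precision is limited by having 4 arrays.

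Of 45101 probe sets, 64 controls were set aside. The platform annotation gave 34945 probe sets 1 gene symbol, 932 several and 9160 none, and 34741 matched the reference genes (GRCm38.p6) by gene ID. limma 3.58.1 (R 4.3.3; lmFit, eBayes, two-sided) compared positive with negative over all 45037 probe sets, with 3.80 total degrees of freedom. It was also run on simulated arrays with planted changes, which checks the code and says nothing of the spread in these data. List genes were read at their brightest probe set by the mean of all 4 arrays. Probe sets covered by the text and figures are all those of the 6 members, Hes1, the 4 list genes with the largest absolute difference, and the 3 nearest profiles of members whose brightest probe set ranged over at least 1 log2 unit. Of the members, Igf2bp3 1433732_x_at and 1433731_at enter only the counts, ranges and figures. Dicer1, Tut4, Cdk6, Myc and most markers given with values were picked from the lists for their roles, after their values were seen. Flt3, Emcn, Tie1 and Mcpt8 are given because they differed from other markers of their lists. Members and lists were chosen with earlier results of these data known. Sequences are from RefSeq.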

Additional observations from a re-analysis of the deposited data

How the results depend on the processing

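The fit called 0 probe sets or genes under each of the 10 alternatives. The counts at an unadjusted limma p under 0.05 were 2094 with cyclic loess, 835 with a filter at the median level, 1754 with trend and robust settings, 2281 with a pseudocount of 16, 734 with 1 probe set per gene, 724 with averaged probe sets, 879 with treat, and 1890, 1873 and 3275 without negative replicates 1, 2 and 3. Member probe sets above the negative range numbered 2 of 13 with that filter, which drops both Lin28a probe sets. With 1 probe set per gene they numbered 2 of 6, against 23.6% of all genes. Those below it numbered 3 of 6 with 1 probe set per gene, against 23.0% of all genes, and 2 of 6 with averaged probe sets. For the other alternatives no share over all probe sets or genes was worked out, so their counts have no background. Leaving out a negative replicate gave 4 to 7 above (7 without replicate 1), 6 to 8 below, 3 to 4 above by at least 1 log2 unit and 0 below by as much; fewer arrays give a narrower range. The difference of Lin28a 1421749_at was 3.02 to 4.0 over its 7 alternatives, and that of 1437752_at 0.75 to 1.76 over 6. Igf2bp1 1449210_at kept 1.29 to 1.45 and Arid3a 1.18 to 1.32. The sign turned for Igf2bp1 1459825_x_at without replicate 3 (-0.08; range to 0.16), for Igf2bp3 1422611_s_at (0.17) and 1450687_at (0.18) without replicate 1 (ranges from -0.17 and -0.19), and for Igf2bp1 with averaged probe sets (0.37, against -0.35 at its brightest); the cause was not tested. List medians with averaged probe sets were 0.04 for let-7 maturation, -0.01 for let-7 targets and -0.31 for the foetal programme; leaving out a replicate gave -0.06 to 0.01, -0.02 to 0.07 and -0.13 to -0.01. No paired analysis was possible because the groups share only replicate number 1.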

Other observations

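Mir99ahg, the host transcript of let-7c-1, and the pseudogene Hmga2-ps1 lie outside the 6 genes and were picked after their values were seen. Mir99ahg 1431424_at had a log2 intensity of 6.65 in the positive-labelled array, against 5.21, 5.55 and 6.07 in negative replicates 1, 2 and 3, and its second probe set 3.93 against 3.90, 5.31 and 3.11. The first put the positive-labelled array highest and the second put it within the range, each with a limma adjusted p of 1.00. Hmga2-ps1 was at 7.61 in the positive-labelled array, against 5.92, 7.0 and 8.67 in the negative arrays, an order unlike that of the bright Hmga2 probe sets.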
